A study of Bos taurus with 30 samples.

Results

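Bovine endometrial epithelial cells were cultured in the upper chamber of a microfluidic device and perfused with medium that held either 5 mM glucose, the control concentration, or 50 mM glucose. The 6 RNA sequencing libraries of these epithelial cells, 3 at each concentration, are described here across all genes, out of 30 libraries in the series. The libraries were grouped by their labels, and the replicate number paired each 50 mM library with a 5 mM library. The cells were primary cells from the uteri of nonpregnant cows early in the luteal phase, and primary endometrial stromal cells shared each device, on the lower side of a porous membrane. By the labels, the groups differed in the glucose concentration only. The other 24 libraries hold the stromal cells of the glucose experiment and both cell types of an insulin experiment. The cells were enriched by sieving and differential plating, so each library is a population of mostly 1 cell type and not a sort of single cells.

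The epithelium of the endometrium lines the uterine lumen and its glands, secretes the uterine luminal fluid that feeds the embryo before implantation, and responds to progesterone and to interferon from the embryo. Cells take up glucose through facilitative transporters and pass it to glycolysis, to the pentose phosphate pathway and to the hexosamine pathway, and in many tissues the arrestin-domain genes TXNIP and ARRDC4 are induced by glucose through the MondoA and ChREBP transcription factors. Collagen synthesis, amino acid supply and the interferon response are separate programs, each run by its own set of regulators.

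The libraries carried the markers of their label. Of 30 epithelial marker genes, 18 were higher in every epithelial glucose library than in every stromal one, among them KRT18 and DSP. The rest overlapped the stromal libraries, among them EPCAM, CDH1, ELF3 and CDH3. Of 31 stromal fibroblast marker genes, 27 were lower in every epithelial library, and among the others 5 of 10 endothelial and 5 of 7 leukocyte marker genes stayed under 1 CPM (counts scaled to a common library total) in all 6 libraries. The rest of both lists exceeded 1 CPM in some library. In CPM of all counted reads, the endothelial gene VWF stood at 20.7 to 76.1, above every stromal library. The leukocyte genes LCP1 and CD14 stood at 152 to 243 and 2.08 to 8.15. In the same unit the epithelial marker EPCAM stood at 149 to 478, against 0 to 307 in the stromal glucose libraries. CDH3, from the same list, stood at 1.71 to 4.32 against 4.04 to 11.4. Stromal marker RNA was nevertheless present. COL1A1 was counted in every epithelial library, and the vimentin gene VIM stood at 935, 1102 and 356 CPM at 5 mM and 997, 928 and 458 CPM at 50 mM in pairs 1, 2 and 3. Levels are CPM scaled by the trimmed mean of M-values (TMM) throughout, and gene levels are given in the order of pairs 1, 2 and 3. The libraries held 13493503 to 16647701 counted reads, so a count of 0 allows a level of up to 0.180 to 0.222 CPM, a limit that covers counting error only.

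The 5 mM library of pair 2 stood apart from the other 5 in its RNA composition. Mitochondrial ribosomal RNA took 1.52% of its counted reads, against 11.2% to 18.1% in the other 5 epithelial glucose libraries and 8.18% to 18.3% in the other 29 libraries of the series. Genes for mitochondrially encoded proteins took 0.128% of its reads against 1.18% to 2.05%. A single long noncoding RNA, ENSBTAG00000052369, took 7.20% of its reads against 1.19% to 1.68%. Of the protein-coding genes tested, 955 (7.32%) lay more than 1 log2 unit above, and 1575 (12.1%) more than 1 log2 unit below, the levels of all the other 5 libraries, while each of those 5 had 3 to 79 such genes in both directions together.

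**Figure D1:**
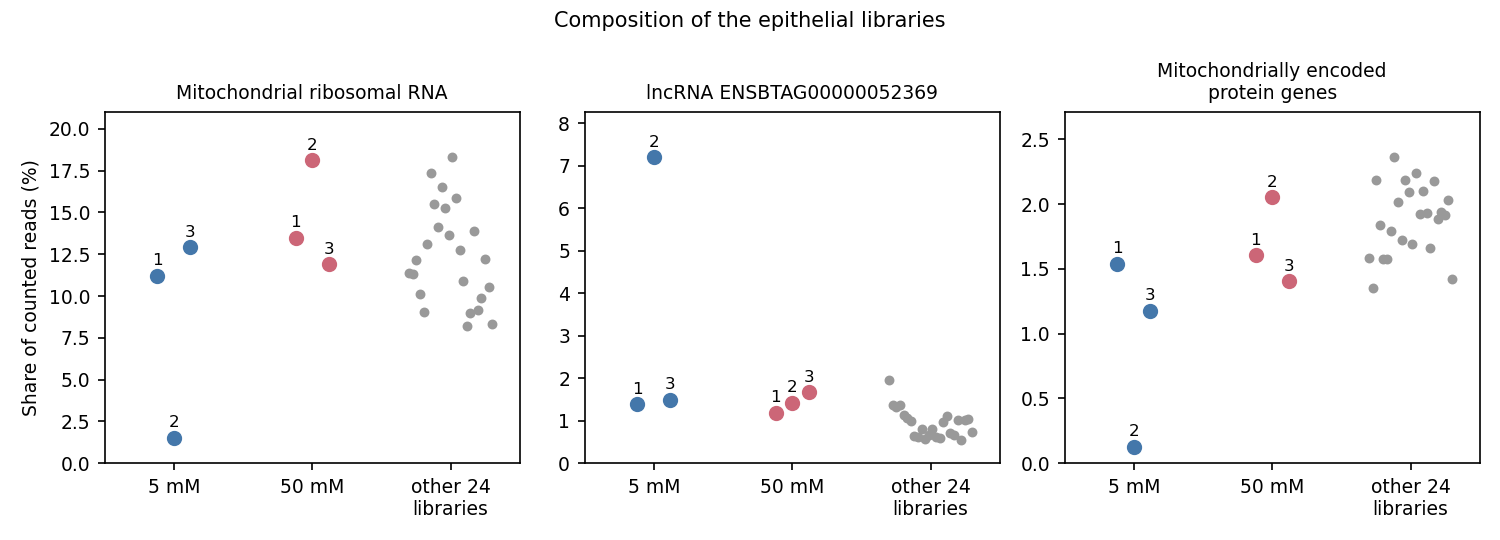
Share of counted reads, in percent, taken by mitochondrial ribosomal RNA, by the long noncoding RNA ENSBTAG00000052369 and by mitochondrially encoded protein genes in the epithelial libraries at 5 mM (blue) and 50 mM glucose (red), with replicate numbers beside the points, and in the other 24 libraries of the series (gray). The 5 mM library of replicate 2 lies outside all other libraries in each panel, at 1.52%, 7.20% and 0.128%.

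Named genes showed the size of this gap. COX1, a mitochondrially encoded subunit of cytochrome c oxidase, stood at 9399.5, 267 and 6159 CPM at 5 mM and 9903, 11794 and 7485 CPM at 50 mM. ND1, a mitochondrially encoded subunit of complex I, stood at 863, 26.1 and 803 CPM at 5 mM and 885, 1281 and 956 CPM at 50 mM. In both genes the 5 mM library of pair 2 was far below the other 5. The chemokine gene CXCL5 stood at 294, 0.643 and 14.1 CPM at 5 mM and 39.0, 27.0 and 19.4 CPM at 50 mM, with the same library lowest and the 5 mM library of pair 1 highest. The departure reached the epithelial markers too. KRT18, a keratin of simple epithelia, stood at 689, 1940.4 and 411 CPM at 5 mM and 679.5, 895 and 443 CPM at 50 mM and was highest in the 5 mM library of pair 2. EPCAM, an adhesion protein of epithelia, stood at 474, 162 and 358 CPM at 5 mM and 459, 394 and 370.5 CPM at 50 mM and was lowest in that library, so no single direction described the markers there.

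The within-pair change, the log2 of the level at 50 mM over that at 5 mM, showed the same library. Over the 13055 protein-coding genes tested the standard deviation of this change was 0.334 in pair 1, 1.04 in pair 2 and 0.255 in pair 3. A change beyond 1 log2 unit was found for 1.41%, 35.8% and 0.368% of the genes. The 50 mM library of pair 2 had 79 genes more than 1 log2 unit outside the other 5 libraries, and its 5 mM library had 2530. Values below are given for each pair, so that pair 2 can be read separately.

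**Figure D2:**
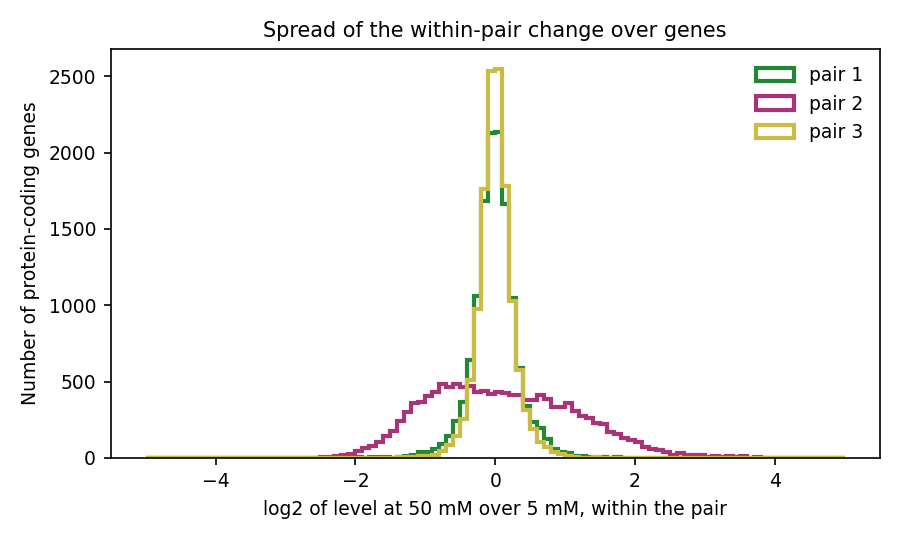
Number of protein-coding genes (vertical axis) by the within-pair log2 of the level at 50 mM over 5 mM (horizontal axis), one line for each pair. Pairs 1 and 3 form narrow peaks around 0 with standard deviations of 0.334 and 0.255, and pair 2 forms a broad one with 1.04.

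No protein-coding gene passed the threshold between 50 and 5 mM glucose when all 3 pairs were fitted. With edgeR's quasi-likelihood test and the pairs as a block, 0 of 13055 genes (0.0%) were called at a Benjamini-Hochberg adjusted p under 0.05 and a log2 fold change beyond 0.1, and the smallest adjusted p was 0.804. At an unadjusted p under 0.05 there were 103 genes higher (0.789%) and 98 lower (0.751%) at 50 mM. DESeq2 with the same pairs also called 0, with 311 genes at an unadjusted p under 0.05. In all, 12 analyses of this comparison were run. In 10 of them 0 genes were called, and the remaining 2 either left out pair 2 (218 genes) or gave it a low weight (276 genes, limma voom with sample quality weights of 0.122 and 0.117 for the libraries of pair 2 against 2.52 to 3.30 for the others). With 3 pairs an exact two-sided permutation test of a single gene cannot go below p = 0.25.

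Without pair 2, 4 libraries in 2 pairs were left, and 218 of 13218 protein-coding genes (1.65%) were called by edgeR. At 50 mM 85 genes were higher (0.643%) and 133 lower (1.01%). At an unadjusted p under 0.05 there were 908 higher (6.87%) and 903 lower (6.83%). The called changes were mostly below a doubling of the level. The median size was 0.60 log2 units among the higher genes and 0.64 among the lower, and 9 and 24 of them went beyond 1. This fit has 1 residual degree of freedom, so its spread is borrowed largely from the other genes, and no further library could be left out. Its calls depended on the pairing and the tool, with 0 genes called without the pairing, 54 by DESeq2 and 605 when every gene with a count was tested. The biological coefficient of variation was 8.09% in this fit and 31.0% with pair 2.

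Pair 2 took no part in choosing these 218 genes, but its change includes the unusual 5 mM library. In that pair 35.8% of all protein-coding genes changed by more than 1 log2 unit. Its direction therefore cannot decide whether the calls repeat, and the counts are a description only. Of the 85 higher genes, 56 (65.9%) were also higher in pair 2, where 50.7% of all protein-coding genes were. Of the 133 lower genes, 62 (46.6%) were also lower in pair 2, against 49.2% of all genes, which is no more than the background. Over all genes tested, 2.35% had 50 mM libraries that all lay above the 5 mM libraries and 2.87% had all of them below. Such a split held for 11 higher and 17 lower called genes, but pairs 1 and 3 chose those genes, so nothing is read from that count. The called genes are given below with their value in each pair, and a call always means a call without pair 2.

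**Figure D3:**
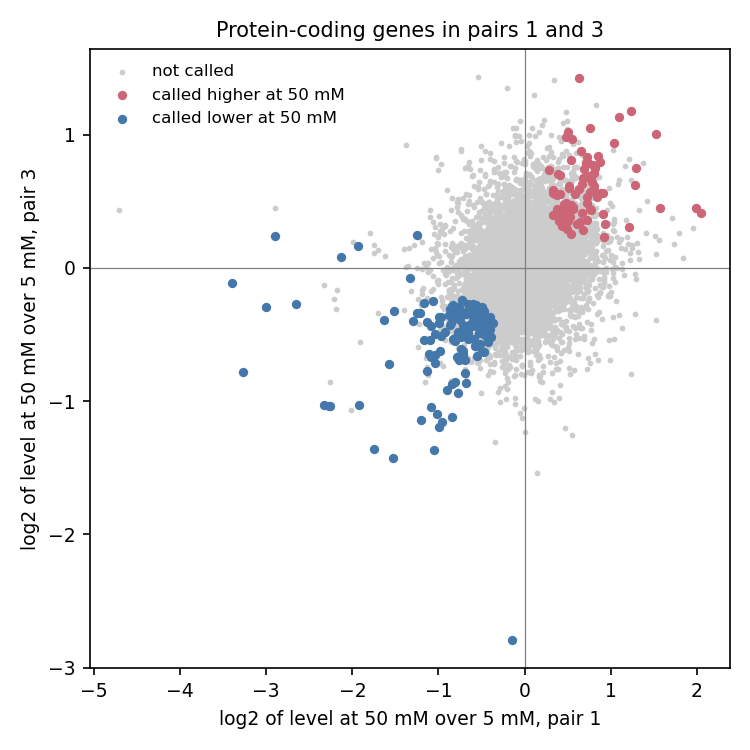
Log2 of the level at 50 mM over 5 mM in pair 1 (horizontal axis) and pair 3 (vertical axis) for each protein-coding gene, with the 85 genes called higher (red) and 132 of the 133 called lower (blue) without pair 2. The remaining gene was not tested with 3 pairs. Most called genes lie within 1 log2 unit of 0 on both axes, and a few lower genes reach beyond -2 in pair 1 while lying near 0 in pair 3.

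Collagen genes were among those called higher at 50 mM. Of 24 tested collagen genes, 7 were called higher (against 0.643% of all genes) and 0 lower, and 12 were higher in all 3 pairs, as were 15.2% of all genes. Their median log2 change was 0.34, 0.45 and 0.40 in pairs 1, 2 and 3, where the median of all protein-coding genes was 0.00, 0.02 and 0.01. COL1A1, a chain of the fibrillar type I collagen, stood at 1009.7, 752 and 226 CPM at 5 mM and 1781, 1667 and 381 CPM at 50 mM. Each 50 mM library was above its own 5 mM library, although the pairs started from very different levels and the groups overlapped. The log2 fold change was 0.79 ± 0.09 (SE, 2 pairs, adjusted p = 4.06e-04) without pair 2 and 0.91 ± 0.22 (SE, 3 pairs, adjusted p = 0.804, unadjusted p = 0.00684) with it. COL1A2, the other chain of type I collagen, moved with it, by 0.80, 1.10 and 0.77 in the 3 pairs. COL3A1, which forms type III collagen, stood at 675, 203 and 169.9 CPM at 5 mM and 860.4, 481 and 249 CPM at 50 mM and changed by 0.45 ± 0.09 (SE, adjusted p = 0.0207).

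The other 4 called collagen genes belong to types V and VI. COL5A2, a regulator of fibril diameter, changed by 0.51, 0.99 and 0.61 in pairs 1, 2 and 3, and COL5A1 by 0.45, 0.46 and 0.42. COL6A1, a chain of the microfibrillar type VI collagen, stood at 166, 171 and 141 CPM at 5 mM and 209, 211 and 211 CPM at 50 mM, the only one of these 4 whose groups did not overlap. COL6A2 changed by 0.42, 0.44 and 0.55. In all 7 genes pair 2 moved the same way as pairs 1 and 3.

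Among the enzymes that process collagen, 1 of 24 was called higher and 1 lower, against 0.643% and 1.01% of all genes. LOXL1, a lysyl oxidase that crosslinks collagen and elastin, stood at 6.93, 9.49 and 7.67 CPM at 5 mM and 11.3, 22.5 and 12.1 CPM at 50 mM, with every 50 mM library above every 5 mM library. Its log2 fold change was 0.68 ± 0.16 (SE, adjusted p = 0.0405). LOXL4, another lysyl oxidase, stood at 197, 326 and 171 CPM at 5 mM and 130.1, 155 and 135 CPM at 50 mM, with every 50 mM library below every 5 mM library. ADAMTS14, a procollagen N-proteinase, was not called (adjusted p = 0.21) and changed by 0.81, 1.84 and 0.62 in the 3 pairs.

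Matrix glycoproteins showed 6 of 32 tested genes called higher (against 0.643% of all genes) and 0 lower. SPARC, a collagen-binding matricellular protein, stood at 325, 137 and 119 CPM at 5 mM and 524, 482 and 198 CPM at 50 mM. All 3 pairs moved up, and the log2 fold change without pair 2 was 0.72 ± 0.09 (SE, adjusted p = 6.29e-04). TGFBI, a TGF-beta induced matrix protein, stood at 155, 143 and 146 CPM at 5 mM and 265, 249.6 and 197 CPM at 50 mM, and its groups did not overlap. POSTN, VCAN, FMOD and NID2 were called too, with changes of 0.33, 0.50, 0.72 and 0.40 in pair 1 and far larger ones of 2.78, 2.57, 3.42 and 1.72 in pair 2. Of 16 tested metalloproteinases and inhibitors 1 was called higher (against 0.643% of all genes). It was TIMP3, which was higher in pairs 1 and 3 and not in pair 2 (0.92, -0.15 and 0.23). Of 9 laminin chains 0 were called in either direction.

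Markers of other cell types moved beside the collagens. Of 30 tested stromal fibroblast markers 6 were called higher (against 0.643% of all genes) and 0 lower. In all 3 pairs 16 of the 30 were higher, as were 15.2% of all genes. The median change of these markers was 0.13, 1.34 and 0.38. In the 5 mM library of pair 2, 14 of the 30 lay more than 1 log2 unit below the other 5 libraries. COL1A1, COL1A2, COL3A1, SPARC and POSTN are in both the stromal list and a matrix list, and the sixth gene was PDGFRA, a receptor of stromal cells, at 0.51, 3.52 and 0.38 in the 3 pairs. The summed level of the stromal list was 18626, 25821 and 27221 CPM at 5 mM and 23520.2, 23055 and 28261 CPM at 50 mM. That sum is led by FN1, which is not lower in epithelial cells, and the groups overlapped. Of 10 tested smooth muscle and pericyte markers 5 were called higher, against 0.643% of all genes. In all 3 pairs 7 of the 10 were higher, as were 15.2% of all genes. The summed level of this list was 256, 602 and 204 CPM at 5 mM and 448, 982 and 269 CPM at 50 mM, above its own 5 mM library in every pair. That sum includes NOTCH3, which is not lower in epithelial cells. NOTCH3 stood at 38.8 to 281 CPM of all counted reads in epithelial libraries and 25.0 to 59.5 in stromal ones.

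DES, the muscle intermediate filament desmin, stood at 35.1, 15.8 and 16.8 CPM at 5 mM and 85.7, 232 and 26.1 CPM at 50 mM. Its log2 fold change was 1.00 ± 0.13 (SE, adjusted p = 0.00161) without pair 2. CNN1, an actin-binding protein of smooth muscle, stood at 10.6, 5.55 and 6.15 CPM at 5 mM and 17.7, 44.2 and 11.0 CPM at 50 mM, with no overlap between the groups. ACTA2, smooth muscle actin, changed by 0.77, 3.19 and 0.66, TAGLN by 0.76, 0.40 and 0.44 and the pericyte proteoglycan gene CSPG4 by 1.21, 1.06 and 0.30. VIM itself was not called, with changes of 0.09, -0.25 and 0.36. More stromal or muscle-like cells in a library and more RNA of these genes per cell cannot be told apart in bulk samples, and the part of such cells in the collagen result was not tested. Epithelial markers had a median change of 0.09, -0.63 and 0.13. Of the 30 tested, 1 was called higher (against 0.643% of all genes), CLDN3, with changes of 0.41, -0.66 and 0.39 in pairs 1, 2 and 3.

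**Figure D4:**
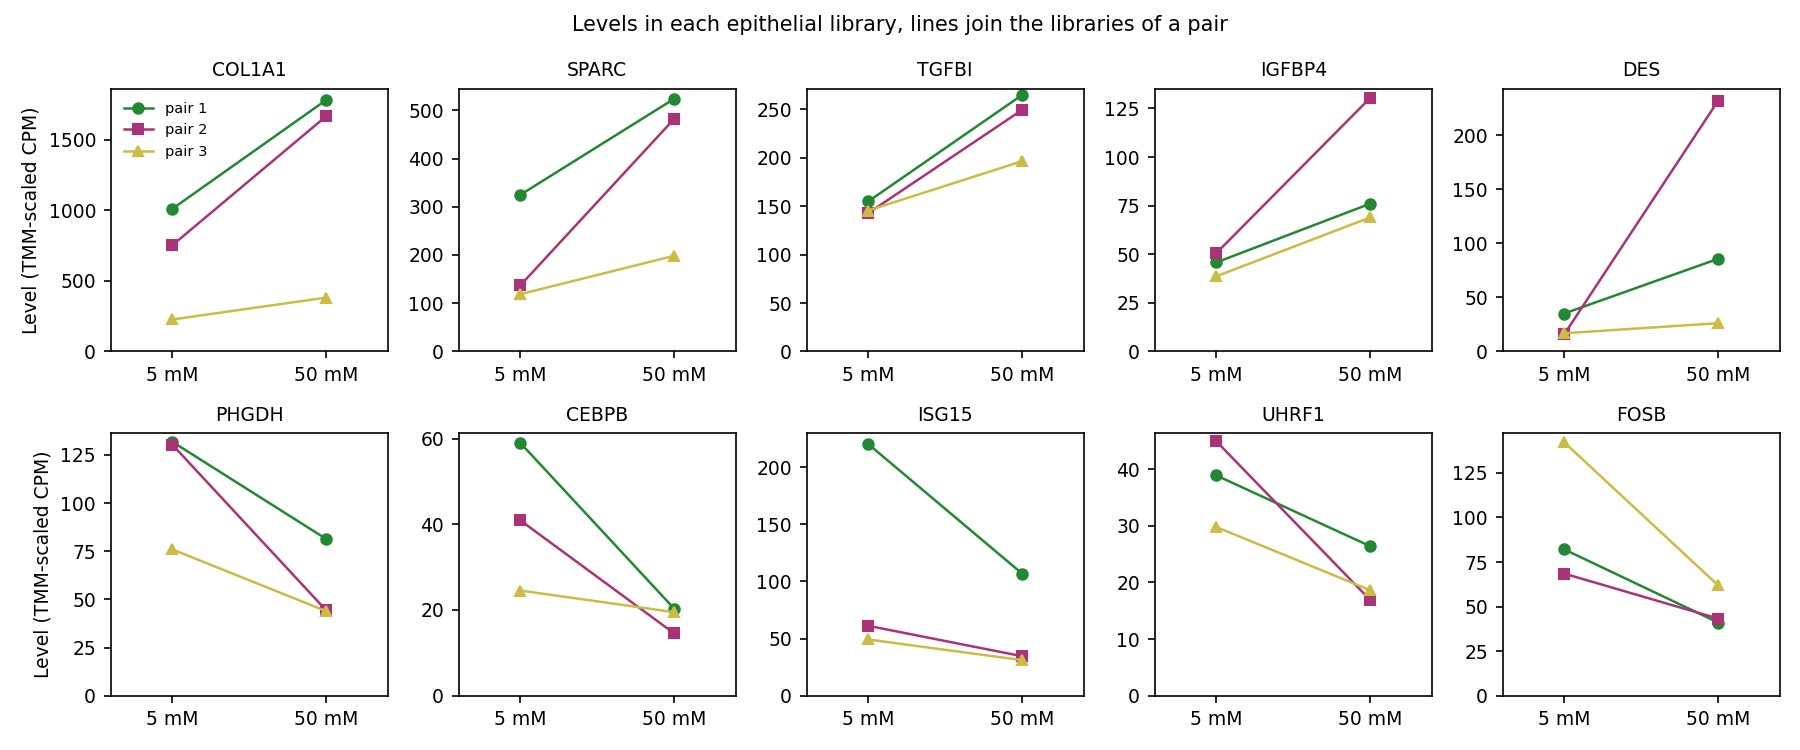
Level in TMM-scaled CPM (vertical axes, each from 0) of 10 genes in the 5 mM and 50 mM libraries, with a line joining the libraries of a pair. COL1A1, SPARC, TGFBI, IGFBP4 and DES rise along all 3 lines, and PHGDH, CEBPB, ISG15, UHRF1 and FOSB fall along all 3, from starting levels that differ between pairs in most of the genes.

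Genes of secreted signaling regulators were among the higher ones. IGFBP4, which binds insulin-like growth factors and limits their access to the receptor, stood at 45.8, 50.5 and 38.6 CPM at 5 mM and 76.0, 130.4 and 68.9 CPM at 50 mM, with every 50 mM library above every 5 mM library and a log2 fold change of 0.78 ± 0.10 (SE, adjusted p = 6.30e-04). The related IGFBP3 was not called and moved by -0.23, 0.62 and -0.15. The 29 tested TGF-beta and activin genes had a median change of 0.16, 0.07 and 0.15. SFRP2, a secreted WNT inhibitor, was the 1 called of 27 tested WNT genes, against 0.643% of all genes called higher. It stood at 3.23, 0.482 and 1.84 CPM at 5 mM and 10.6, 15.0 and 2.70 CPM at 50 mM. WNT4, a WNT ligand of the endometrium, was not called and stood at 0.462, 1.37 and 1.01 CPM at 5 mM and 2.33, 9.14 and 1.25 CPM at 50 mM.

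Genes of the amino acid response were among those called lower at 50 mM. This program, run by the transcription factor ATF4, makes serine, imports amino acids and charges transfer RNAs when amino acids are short. Of 22 tested genes 9 were called lower (against 1.01% of all genes) and 0 higher, and 10 were lower in all 3 pairs, as were 14.8% of all genes. The median change was -0.70, -0.42 and -0.26 in pairs 1, 2 and 3. In 6 of the 22 genes all 50 mM libraries lay below all 5 mM libraries, as in 2.87% of all genes. This count is a description only.

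PHGDH, the first enzyme of serine synthesis, stood at 132, 130.4 and 76.0 CPM at 5 mM and 81.3, 44.3 and 43.8 CPM at 50 mM. Each 50 mM library was below its own 5 mM library, and the log2 fold change was -0.74 ± 0.09 (SE, adjusted p = 6.30e-04) without pair 2 and -1.01 ± 0.26 (unadjusted p = 0.00952) with it. The enzymes of the next steps were called as well. PSAT1 stood at 175, 52.6 and 48.6 CPM at 5 mM and 80.0, 52.7 and 28.2 CPM at 50 mM, with close levels in pair 2. PSPH changed by -0.71, -0.30 and -0.48, and SHMT2, which passes serine into mitochondrial one-carbon metabolism, by -0.87, -0.83 and -0.31. MTHFD2 and ASNS, the asparagine synthetase gene, were lower in pairs 1 and 3, with changes of 0.31 and 0.33 in pair 2. The amino acid transporter genes SLC7A5 and SLC1A4 stood apart between the groups over all 6 libraries, with changes of -1.13, -0.45 and -0.41 and -1.04, -0.27 and -0.49.

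CEBPB, a transcription factor induced by ATF4 and by cytokines, stood at 59.0, 40.9 and 24.5 CPM at 5 mM and 20.3, 14.5 and 19.5 CPM at 50 mM. Every 50 mM library was below every 5 mM library, although pair 3 moved least, and the log2 fold change was -0.97 ± 0.19 (SE, adjusted p = 0.0207). TRIB3 and DDIT3, both stress genes downstream of ATF4, were not called. TRIB3 stood at 56.0, 52.3 and 38.8 CPM at 5 mM and 30.2, 23.9 and 34.6 CPM at 50 mM, with no overlap, and DDIT3 changed by -0.75, -0.65 and 0.05. PCK2, the mitochondrial phosphoenolpyruvate carboxykinase, was called lower from the list of insulin signaling genes and changed by -0.88, -1.29 and -0.35. Of 24 endoplasmic reticulum chaperone and unfolded protein response genes 0 were called, with a median change of -0.05, -0.06 and 0.10.

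Interferon response genes were called lower on pairs 1 and 3, and the list's median was above 0 in pair 2. Of 39 tested genes 21 were called lower (against 1.01% of all genes) and 0 higher. In all 3 pairs 12 of the 39 were lower, as were 14.8% of all genes. The median change was -0.78, 0.31 and -0.39, so pair 2 moved the other way. In that pair the 5 mM library was low for many of these genes. IFIT1, an antiviral RNA-binding protein, stood at 326, 8.20 and 69.5 CPM at 5 mM and 96.9, 31.5 and 26.8 CPM at 50 mM. MX2, an antiviral GTPase, stood at 206, 13.6 and 32.7 CPM at 5 mM and 42.3, 40.1 and 15.7 CPM at 50 mM, and MX1 at 896, 97.1 and 170.0 CPM at 5 mM and 514, 153 and 116 CPM at 50 mM. In each the 5 mM library of pair 1 was the highest of the 6 and that of pair 2 the lowest.

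Several interferon genes were lower in all 3 pairs. ISG15, a ubiquitin-like protein that responds to the pregnancy interferon in cattle, stood at 220.1, 61.1 and 49.1 CPM at 5 mM and 107, 34.5 and 31.1 CPM at 50 mM, with a log2 fold change of -0.87 ± 0.10 (SE, adjusted p = 6.17e-04). The groups overlapped because pair 1 began much higher than the others. ZBP1, a sensor of Z-form nucleic acid, stood at 15.0, 3.70 and 14.6 CPM at 5 mM and 3.58, 1.88 and 6.91 CPM at 50 mM and changed by -1.52 ± 0.20 (SE, adjusted p = 0.00144). CMPK2, a mitochondrial nucleotide kinase, changed by -1.21, -1.16 and -0.34. XAF1 stood at 46.3, 40.4 and 34.6 CPM at 5 mM and 27.7, 19.7 and 26.9 CPM at 50 mM, with no overlap. OAS1X, OAS1Y and OAS1Z, near copies of one another, were all called lower. Unique alignment drops reads that match more than 1 of them, and their separate values are uncertain. Among 14 class I antigen presentation genes 1 was called lower (against 1.01% of all genes), PSMB9, an immunoproteasome subunit. It stood at 14.8, 12.5 and 8.43 CPM at 5 mM and 8.80, 7.07 and 5.20 CPM at 50 mM. In all 3 pairs 9 of the 14 were lower, as were 14.8% of all genes.

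The calls of cytokine and chemokine genes rested mainly on pair 1. Of 18 tested genes 5 were called lower (against 1.01% of all genes), CXCL2, CXCL3, CXCL8, GRO1 and IL1A. CXCL8, the neutrophil chemokine interleukin 8, stood at 160.3, 1.21 and 6.15 CPM at 5 mM and 25.1, 9.77 and 5.00 CPM at 50 mM, and IL1A at 77.2, 0.563 and 2.54 CPM at 5 mM and 9.18, 2.07 and 1.98 CPM at 50 mM. In both the 5 mM library of pair 1 was several times higher than any other library. The change in pair 3 was -0.78 to 0.24 over the 5 genes, against -3.40 to -2.65 in pair 1, and the change in pair 2 was above 0 in all 5. LIF, a cytokine needed for implantation in several species, was not called and stood at 168, 128 and 62.3 CPM at 5 mM and 74.2, 68.2 and 63.8 CPM at 50 mM. CXCL2, CXCL3 and GRO1 are close paralogs, and unique alignment drops reads that match more than 1 of them.

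Cell cycle genes were called lower on pairs 1 and 3. Of 35 tested genes 8 were called lower (against 1.01% of all genes) and 0 higher. In all 3 pairs 13 of the 35 were lower, as were 14.8% of all genes. The list's median change was -0.41, 0.06 and -0.35. UHRF1, which maintains DNA methylation in S phase, stood at 38.9, 45.0 and 29.8 CPM at 5 mM and 26.4, 16.9 and 18.6 CPM at 50 mM. Its groups did not overlap, and the log2 fold change was -0.62 ± 0.11 (SE, adjusted p = 0.0106). MCM5, a subunit of the replicative helicase, stood at 36.7, 51.5 and 34.7 CPM at 5 mM and 25.3, 22.5 and 26.2 CPM at 50 mM, again without overlap. MKI67, the proliferation marker Ki-67, stood at 229.8, 158 and 312 CPM at 5 mM and 156, 109 and 230.4 CPM at 50 mM and was lower within each pair. TOP2A and CCNB1, genes of mitosis, were called too, with changes of 0.79 and 0.77 in pair 2.

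FOSB, an immediate early subunit of the AP-1 transcription factor, was called lower and was lower in every pair. It stood at 82.1, 68.5 and 142 CPM at 5 mM and 41.0, 43.3 and 61.9 CPM at 50 mM, with every 50 mM library below every 5 mM library. The log2 fold change was -1.10 ± 0.09 (SE, adjusted p = 4.35e-05) without pair 2 and -0.96 ± 0.23 (unadjusted p = 0.00642) with it. Of 27 tested immediate early genes 2 were called lower (against 1.01% of all genes), FOSB and KLF4. EGR1 was higher in all 3 pairs and not called (1.05, 0.86 and 0.01). The list's median was near 0 in all pairs, at -0.04, -0.10 and -0.02.

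Genes that handle glucose itself were not among the calls. For glucose sensing (10 tested genes), glucose transporters (9), glycolysis (29), the pentose phosphate pathway (9), the hexosamine pathway (11) and osmotic stress with the polyol pathway (14), 0 genes were called in either direction. TXNIP stood at 96.6, 178 and 436 CPM at 5 mM and 114, 206 and 409.8 CPM at 50 mM, with a log2 fold change of 0.07 ± 0.10 (SE, adjusted p = 0.822), and ARRDC4 at 102, 77.9 and 127 CPM at 5 mM and 93.3, 129 and 130.0 CPM at 50 mM. The TXNIP level differed more between pairs than within them. SLC2A1, the main facilitative glucose transporter gene, stood at 616, 1103 and 451 CPM at 5 mM and 655, 836 and 564 CPM at 50 mM, and HK2, a hexokinase, at 76.5, 208 and 177 CPM at 5 mM and 78.5, 91.0 and 177 CPM at 50 mM. AKR1B1, the aldose reductase of the polyol pathway, changed by -0.03, -0.56 and 0.06. NFAT5, the transcription factor of hypertonic stress, stood at 102, 16.8 and 90.4 CPM at 5 mM and 105, 88.8 and 88.3 CPM at 50 mM, where the 5 mM library of pair 2 is the only one that stands out.

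The medians of these lists differed between pairs. Glycolysis genes had a median change of 0.21, -0.55 and 0.05 and hexosamine pathway genes of 0.08, 0.57 and 0.12. OGA, which removes O-linked N-acetylglucosamine from proteins, was higher in all 3 pairs, by 0.29, 0.57 and 0.26, and was not called (adjusted p = 0.144). Of 22 hypoxia response genes 1 was called higher (against 0.643% of all genes), ANGPTL4, at 1.99, -0.92 and 0.45, with pair 2 in the other direction. The list's median change was 0.36, -0.29 and 0.15. Without pair 2, 19 of the 22 had a log2 change above 0. Of the 22, 12 were higher at an unadjusted p under 0.05 in that edgeR fit, against 6.87% of all genes. P4HA1, a prolyl hydroxylase that acts on collagen, stood at 109, 82.6 and 167 CPM at 5 mM and 185, 229.6 and 189 CPM at 50 mM, with no overlap between the groups, and just missed the call (adjusted p = 0.0558).

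Steroid receptor and receptivity genes gave few calls. PGR, the progesterone receptor gene, stood at 12.3, 20.6 and 21.4 CPM at 5 mM and 10.4, 12.7 and 18.0 CPM at 50 mM and was lower in each pair without being called (-0.25 ± 0.13, SE, adjusted p = 0.435). ESR1, the estrogen receptor gene, changed by -0.21, 0.55 and -0.39. Of 24 progesterone and receptivity genes 0 were called. Of 14 prostaglandin genes 1 was called lower (against 1.01% of all genes), PTGS2, the inducible cyclooxygenase. It stood at 251, 9.65 and 169 CPM at 5 mM and 140.4, 60.2 and 139 CPM at 50 mM. Its changes were -0.84, 2.58 and -0.29, so that pair 2 went the other way. Among secreted epithelial proteins 0 of 14 were called, and the mucin gene MUC1 was higher in each pair, by 0.17, 0.87 and 0.33 (adjusted p = 0.21).

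Lipid and housekeeping programs gave 0 calls as well. None of the 23 cholesterol synthesis, 24 fatty acid and triglyceride, 24 NRF2, 83 cytosolic ribosomal protein and 75 nuclear oxidative phosphorylation genes tested was called. The ribosomal protein genes had small median changes of -0.06, 0.11 and -0.12. In all 3 pairs 29 of the 83 were lower, as were 14.8% of all genes. In 13 of them all 50 mM libraries lay below all 5 mM libraries, as in 2.87% of all genes. Mitochondrially encoded protein genes, 13 tested with 0 called, had a median change of 0.20, 4.02 and 0.24. The size of the median of 1.30 with 3 pairs was thus set by the 5 mM library of pair 2. In all 3 pairs 12 of the 13 were higher, as were 15.2% of all genes. Without pair 2 the median was 0.22, and 13 of the 13 had a log2 change above 0. Among noncoding genes, held to the same thresholds without pair 2, 0 of 166 small nuclear and nucleolar RNAs passed. Of 66 other small structural RNAs 1 passed as lower, against 1.01% of protein-coding genes.

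**Figure D5:**
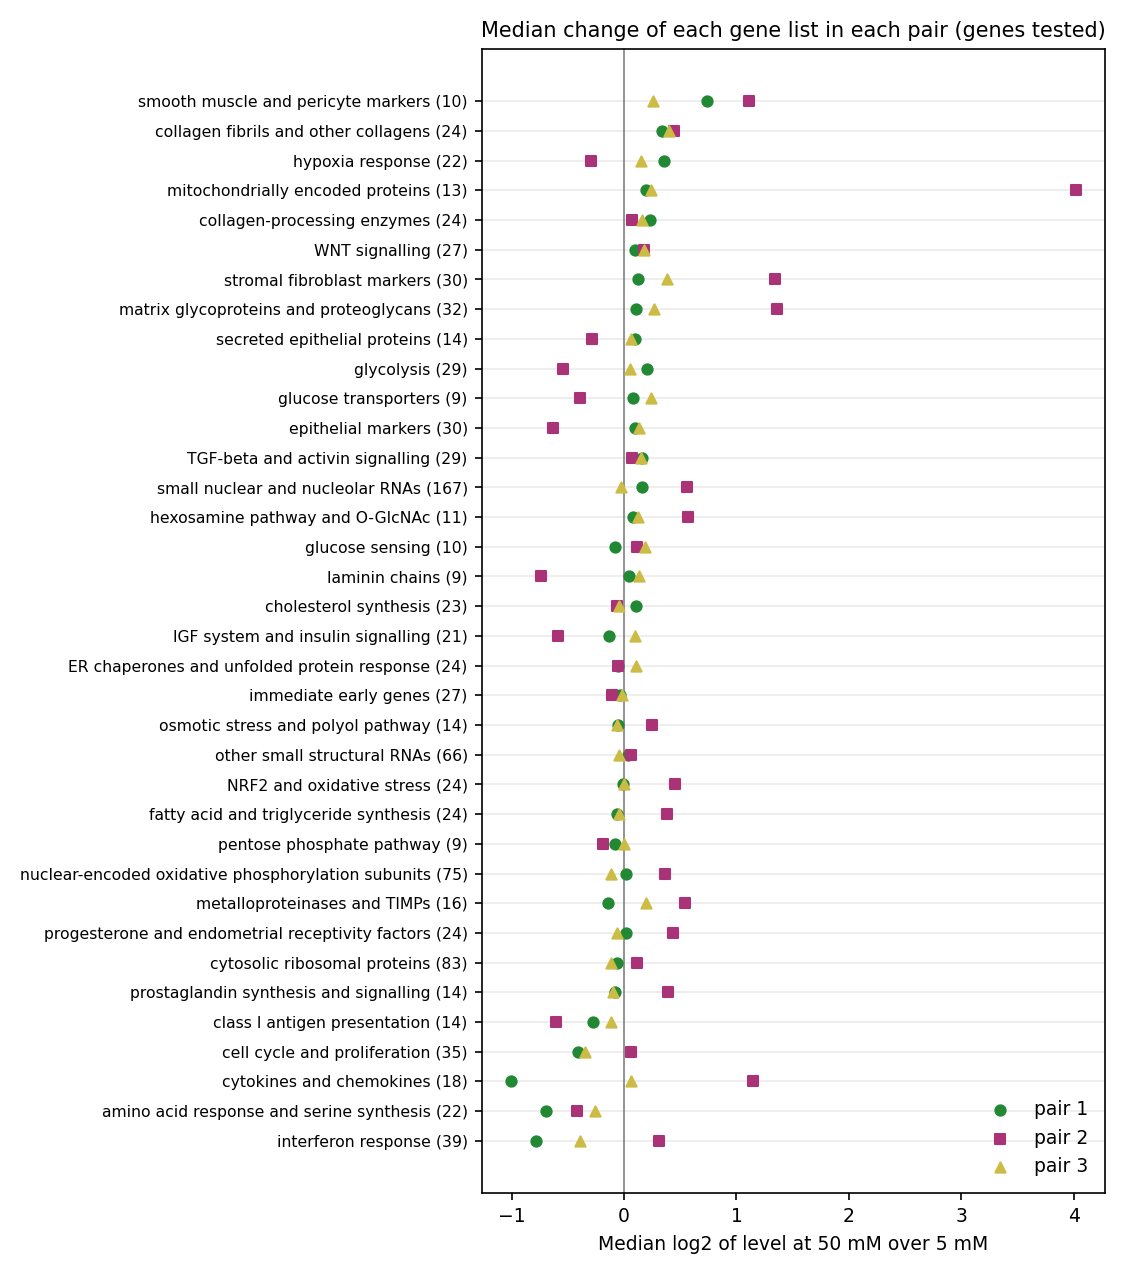
Median within-pair log2 of the level at 50 mM over 5 mM (horizontal axis) for each gene list, with the number of genes tested in brackets, in pair 1 (circles), pair 2 (squares) and pair 3 (triangles). Collagens lie at 0.34 to 0.45 and amino acid response genes at -0.70 to -0.26 in all 3 pairs, whereas interferon, cell cycle and cytokine genes have pair 2 on the other side of 0 from pair 1.

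Many of the largest called changes with the same direction in all 3 pairs came from genes of low level. FOSB, CEBPB, ISG15 and DES, described above, and IRX3 were also among the largest and stood at higher levels. The higher ones included SSPN, sarcospan of the dystrophin complex, at 0.462, 0.322 and 0.634 CPM at 5 mM and 2.26, 1.50 and 1.78 CPM at 50 mM. They also included SCUBE3, a secreted signaling protein, at 3.89, 1.37 and 0.507 CPM at 5 mM and 9.81, 10.0 and 1.78 CPM at 50 mM, and PRELP, a small leucine-rich matrix proteoglycan, at 4.48, 1.93 and 1.65 CPM at 5 mM and 10.1, 6.45 and 4.21 CPM at 50 mM. SMOC1, a matricellular relative of SPARC, changed by 2.04, 1.16 and 0.41, TRPC4, a cation channel, by 0.88, 3.10 and 0.79, NPTXR, a pentraxin receptor, by 1.29, 0.54 and 0.75, and SLC39A2, a zinc importer, by 0.85, 0.15 and 0.84. The lower ones included INHBE, an activin subunit, at 3.10, 1.29 and 1.33 CPM at 5 mM and 0.251, 0.501 and 0.395 CPM at 50 mM, where the 50 mM libraries lie near the limit that a count of 0 allows. SLC34A2, a phosphate cotransporter, stood at 6.73, 0.563 and 4.82 CPM at 5 mM and 0.943, 0.438 and 2.11 CPM at 50 mM, with both libraries of pair 2 low. CERS3, a ceramide synthase, changed by -1.08, -0.17 and -1.05, REC8, a meiotic cohesin, by -1.11, -0.86 and -0.65, and IRX3, a homeobox factor, by -1.09, -0.67 and -0.54.

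The genes with the smallest unadjusted p over all 3 pairs included a pair of low level. TMPRSS3, a membrane serine protease, stood at 0.132, 10.5 and 1.71 CPM at 5 mM and 0, 1.50 and 0.395 CPM at 50 mM, and PLXNA4, a semaphorin receptor, at 0.462, 13.3 and 0.761 CPM at 5 mM and 0.0629, 2.63 and 0.329 CPM at 50 mM. Each was highest in the 5 mM library of pair 2, and neither was tested without pair 2. The other 6 were SCUBE3, PRELP, SSPN, FOSB, COL1A1 and COL1A2, described above, at unadjusted p of 0.00395, 0.0043, 0.00492, 0.00642, 0.00684 and 0.00704.

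Whether the response was particular to epithelial cells was tested as the difference between the glucose effect in epithelial and in stromal cells. With edgeR 0 of 13851 protein-coding genes (0.0%) were called for that difference, and 1060 had an unadjusted p under 0.05. Without pair 2 of both cell types 0 were called again, with 745 at an unadjusted p under 0.05. DESeq2 called 246, of which 240 had a lower log2 change in epithelial than in stromal cells. Leaving out replicate 1 in edgeR gave 303, of which 301 had a lower one. A count of 0 here does not show that the cell types responded alike. The stromal libraries differed in epithelial marker RNA, with KRT19 at 1.01 to 1076 CPM of all counted reads. This difference went along with glucose. The epithelial marker list had a median log2 change of 1.10, 3.49 and 6.74 in stromal pairs 1, 2 and 3, higher at 50 mM in each. The part of this epithelial marker RNA in the calls for the difference was not tested.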

How the data were processed

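RNA was sequenced in 30 libraries (stranded, single-end, Illumina NextSeq), of which the 6 epithelial libraries at 5 and 50 mM glucose were analyzed here, with the 6 stromal ones for the difference between cell types. Per the labels and the study's methods, the authors inspected reads with FastQC, trimmed them with cutadapt, aligned them with Rsubread to the Ensembl cow genome keeping unique alignments, sorted them with SAMtools and counted them per gene with featureCounts. The deposited values are raw counts. Unique alignment drops reads shared by near copies of a gene. The assembly name is not given in the sources used here, so no coordinates or sequences are printed. The authors' comparison tables hold fold changes and p-values that were not used. Gene symbols and types were read from them (17468 of 27607 genes had a type), and a gene without a type was not counted as protein-coding.

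Counts were fitted with edgeR 4.0.16 (R 4.3.3, TMM, filterByExpr, quasi-likelihood test, pairs as a block, as in the paired design of the study), once with 3 pairs and once without pair 2. A call is a protein-coding gene with Benjamini-Hochberg adjusted p under 0.05 and log2 fold change beyond 0.1, adjusted over all genes tested. Positive values are higher at 50 mM. Within-pair changes used CPM + 0.5. SE is the fold change over the root of the F statistic. The replicate numbers pair the samples. Same-numbered libraries deviated together from their group means (correlations 0.72, 0.32 and 0.60 over genes). All other combinations were negative, which is partly built in, because the deviations within a group cancel. Alternatives were DESeq2 1.42.0, limma 3.58.1 (voom with sample quality weights), other scalings and filters, no block, a robust fit and leaving out libraries. None of the 6 libraries held the same counts as another. The p-values measure how far the within-pair changes differ between pairs. In the fit without pair 2 that spread is borrowed largely from other genes. The labels give replicate numbers only, and the study calls the samples biological replicates.

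The members and the 38 gene lists were chosen with earlier results of these data known, so list counts are descriptions. Named genes were the 2 of smallest p per list, a set of defining genes, the 10 largest changes in each direction among calls moving alike in all pairs, the 8 smallest p over 3 pairs and the genes farthest out in the 5 mM library of pair 2. Other called list members and a family of transfer RNA synthetases were named after their values were seen. A single named gene is not reported here.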

Additional observations from a re-analysis of the deposited data

Results flagged for a closer look

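Gene lists whose median moved one way in all 3 epithelial pairs and the other way in all 3 stromal pairs are given here, and the difference was not tested. The median log2 change of pentose phosphate pathway genes was -0.0585 over the 3 epithelial pairs, with -0.08, -0.19 and -0.00 in pairs 1, 2 and 3, against 0.10, 0.05 and 0.17 in the stromal pairs. Class I antigen presentation genes had a median of -0.38 (-0.28, -0.60 and -0.12) against 0.23, 0.06 and 0.61 in the stromal pairs. Mitochondrially encoded protein genes had a median of 1.30 (0.20, 4.02 and 0.24) against -0.24, -0.37 and -0.26, and the epithelial value was set by the 5 mM library of pair 2. The 4 tested endothelial marker genes had a median of -0.0710 (-0.26, -0.33 and -0.13) against 0.45, 0.41 and 1.46 in the stromal pairs. Epithelial marker genes were also higher at 50 mM in the stromal pairs, by a median of 1.10, 3.49 and 6.74. The part of that RNA in the stromal values given here was not tested.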

How the results depend on the processing

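The count of 0 genes over 3 pairs was kept with DESeq2 size factors, protein-coding scaling, every gene with a count, no replicate block (94 genes at an unadjusted p under 0.05), DESeq2, a robust fit, and without the 5 mM library of pair 2 alone. It became 276 with voom sample weights, and leaving out 1 replicate gave 0 to 218. The 218 genes without pair 2 became 605 with every gene, 54 with DESeq2 and 0 without the replicate block, and 164 to 259 otherwise. Of the 218 genes, 179 (82.1%) were among the 276 with weights (64.9% of those). The difference between cell types gave 1 gene with every gene tested, 246 with DESeq2, 7 with voom weights and 0 to 303 when 1 replicate was left out. The causes were not tested beyond the construction of each fit. Several named genes changed sign, many with values near 0, but PTGS2 and PLXNA4 did so with larger values. Leaving out 1 replicate gave log2 ranges of -0.57 to 0.0440 for KRT18, -0.0824 to 0.23 for VIM, -0.0461 to 0.36 for ARRDC4, -0.16 to 0.21 for SLC2A1, -0.61 to 0.0173 for HK2, -0.30 to 0.0134 for AKR1B1, -0.30 to 0.17 for ESR1, -0.19 to 0.22 for IGFBP3, -0.57 to 1.13 for PTGS2 and -0.0890 to 0.91 for RPE. Voom weights gave 0.0107 for KRT18, -0.0412 for ARRDC4, -0.18 for IGFBP3, -0.56 for PTGS2 and -0.0267 for RPE. Dropping only the 5 mM library of pair 2, without the block, gave 0.29 for KRT18, -0.0289 for EPCAM, -0.13 for TXNIP, 0.12 for AKR1B1, -0.20 for IGFBP3, -0.89 for PTGS2, -0.16 for CD14, -0.15 for SLC2A3, -0.0363 for NFAT5 and 0.72 for PLXNA4. No replicate block gave -0.00584 for VIM, -0.0783 for SLC2A1, 0.0137 for ESR1 and -0.34 for PTGS2, and DESeq2 size factors and DESeq2 gave -0.00130 and -0.00131 for SLC2A1. Without pair 2, no block gave -0.00472 for EPCAM, -0.0231 for TXNIP, -0.00121 for AKR1B1, 0.0777 for ELF3 and 0.0796 for ARRDC2, every gene gave -0.00338 for EPCAM and -0.00369 for NFAT5, and weights gave 0.00520 for ARRDC2. Depth of at least 13493503 reads limits only genes under about 1 CPM, such as SSPN at 5 mM.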

Other observations

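Cytosolic transfer RNA synthetases, which attach amino acids to transfer RNAs, were looked at after 6 of them were seen among the called genes, so their values are a description. Of 20 tested, 6 were called lower without pair 2 (AARS, CARS, GARS, MARS, WARS and YARS), against 1.01% of all genes. In that fit 17 had a log2 change below 0. In all 3 pairs 9 of the 20 were lower, as were 14.8% of all genes. The median log2 change was -0.29, -0.08 and -0.14 in pairs 1, 2 and 3. GARS, the glycine enzyme, stood at 459, 243 and 239 CPM at 5 mM and 303, 223 and 186 CPM at 50 mM, with a log2 fold change of -0.48 ± 0.09 (SE, adjusted p = 0.0146). Further called genes outside the lists were also named after their values were seen. CTH, an enzyme of cysteine synthesis, changed by -1.09, 1.77 and -0.67, GDF15, a stress-induced secreted factor, by -0.76, -0.73 and -0.29, and OXTR, the oxytocin receptor gene, by -0.46, -0.42 and -0.40. The actin-binding genes CALD1 and TPM2 were called higher, with changes of 0.68, 0.56 and 0.28 and 0.66, 0.90 and 0.41. Of the 218 called genes, 75 belonged to a list and 143 to none.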
